A study of Homo sapiens with 33 samples.

Results

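The mesothelial identity markers described here were 10 genes chosen by name from the 58302 genes of the matrix, namely MSLN, MUC16, WT1, CALB2, PDPN, THBD, TM4SF1, GPM6A, UPK3B and LRRN4. All 10 were found, and their basal levels were compared among 6 established cell lines before their values under palbociclib and after its washout. H2052, H2452, H28 and MSTO-211H are malignant pleural mesothelioma (MPM) lines that are sensitive to palbociclib, an inhibitor of the cell cycle kinases CDK4 and CDK6. Of the resistant lines, MPP89 also comes from MPM and has mutated RB1, whereas MeT-5A comes from normal mesothelium that SV40 immortalized. RNA-seq was performed on cells exposed to 0.1% DMSO or to 1 µM palbociclib over 9 or 10 days, in 2 pairs of H2052, 3 pairs each of H2452, H28 and MSTO-211H, 2 pairs of MPP89 and 1 pair of MeT-5A. Another 4 libraries, 1 per sensitive line, came from cells kept for 48 h in drug-free medium after palbociclib, and 1 library came from untreated MeT-5A cells, which makes 33 in all. All lines grew in the same serum-containing medium. Replicates were separate experiments on 1 line, so that tests cover the spread between experiments of these lines and not between tumours.

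Mesothelial cells line the pleura and the other body cavities. Pathologists tell mesothelioma from lung adenocarcinoma by proteins that this lining keeps, among them calretinin (CALB2), WT1, podoplanin (PDPN) and mesothelin (MSLN). No single marker is kept by every mesothelioma, and panels of several are therefore used.

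Levels are given as counts scaled to 20000000 reads per library (CP20M), whole numbers that the authors had rounded up, so that 0 stands for a gene without a counted read. Of the 10 markers, 8 reached 100 CP20M in at least 1 of the 33 libraries and were tested with 17803 genes in all. MUC16 (at most 60 CP20M) and GPM6A (at most 57) did not, and have values without a test. A marker that passed through a single high line had to differ between lines, so the spread among lines below is a description.

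The cells were checked against marker lists in their control libraries. Of 11 mesothelial markers, 8 reached a mean of 100 CP20M in H2052 and in H2452, and 6 in MPP89 and in MeT-5A. In H28 5 reached it and 4 were under 10, and in MSTO-211H 4 reached it and 5 were under 10. The keratin KRT8 was the highest of this list in every line, with line means from 5770 CP20M in H28 to 46358 in MPP89. Of 8 markers of lung epithelium and adenocarcinoma, 0 or 1 reached a mean of 100 CP20M in a line, namely CLDN4 in H2452 and H28 (1598 in H28) and CDH1 in MPP89 (930). Of 8 endothelial markers 0 or 1 reached it, namely TEK in MPP89 and FLT4 in MeT-5A, and the summed level of the list ran from 46 to 469 CP20M over all control libraries. Endothelium also makes PDPN, THBD and TM4SF1. The libraries are of cell lines in culture, and whether other cells had any part in these levels was not tested. CD68 was the highest of 4 leukocyte markers in each line, and CD14 also reached 100 CP20M in H2452, MPP89 and MeT-5A. Of 7 fibroblast markers 2 to 5 reached 100 CP20M, and COL1A1 in MPP89 (79676) was above KRT8 there. Depth could be estimated for 23 libraries and ran from 12730000 to 19500000 reads, so that 1 read was worth at most 1.57 CP20M.

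Promoter sequences are shown for the pair of markers whose palbociclib response differed among the sensitive lines. They are the 250 bases before a RefSeq start of the gene (GRCh38.p14), written 5′ to 3′ on the strand of the gene. Capitals mark matches to the searched motifs on either strand.
TM4SF1, chr3:149377650-149377899, minus strand: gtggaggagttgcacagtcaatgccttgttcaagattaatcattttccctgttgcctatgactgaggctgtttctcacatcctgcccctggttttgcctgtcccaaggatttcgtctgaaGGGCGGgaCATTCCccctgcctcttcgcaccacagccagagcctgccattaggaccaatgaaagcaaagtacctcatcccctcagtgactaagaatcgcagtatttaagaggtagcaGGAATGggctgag
PDPN, chr1:13583582-13583831, plus strand: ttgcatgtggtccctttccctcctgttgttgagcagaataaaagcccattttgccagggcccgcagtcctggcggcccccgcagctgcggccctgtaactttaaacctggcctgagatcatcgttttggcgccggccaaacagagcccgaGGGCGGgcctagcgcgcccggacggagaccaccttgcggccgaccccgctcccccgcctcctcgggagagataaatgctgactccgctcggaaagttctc

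The motifs searched on both strands were TATAAA and the GC box, GGGCGG. The others were the E box (CACGTG), the core bound by TEAD factors (GGAATG), an E2F form that contains the GC box (GGGCGGGAA) and the CHR element of cell cycle genes (TTTGAA). The window of TM4SF1 held GGAATG once on each strand and GGGCGG once, and the shown window of PDPN held GGGCGG once. The PDPN window from 13583507 held TATAAA and GGGCGG once each, and that from 13585210 held TATAAA and TTTGAA once each. All PDPN windows lie within the gene span given below, which begins at 13583465. Of 35116 promoter windows of this length, 11.9% held GGAATG and 42.6% held GGGCGG. The table held MUC16, WT1, PDPN, TM4SF1, GPM6A and UPK3B, 6 of the 10 markers, and PDPN had 3 starts in it. Over all starts, GGGCGG was found for 5 of these 6, TTTGAA for 3 (13.3% of windows), GGAATG for 2, TATAAA for 2 (10.7%), CACGTG for 1 (6.34%) and GGGCGGGAA for 0 (1.28%). A marker was counted if any of its starts held the motif, and WT1 and GPM6A had 4 starts each, whereas the shares are of single windows. The counts of markers therefore cannot be set beside these shares. CALB2, MSLN, THBD and LRRN4 had no entry.

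The first question was which markers each line carries without the drug. The control libraries were the DMSO libraries and untreated MeT-5A. No line held all 10 markers, and each line had its own combination. H2052 and H2452 had 6 markers at a mean of 100 CP20M or more, MeT-5A had 5, MSTO-211H and MPP89 had 4, and H28 had 3. All 8 tested markers differed among the 6 lines (limma F test, adjusted p from 1.84e-10 for PDPN to 2.26e-05 for UPK3B), but so did 96.3% of all tested genes. Contrasts between 2 lines also differed at many genes. Against H2052, the share of tested genes under an FDR of 0.05 was 56.3% for H2452, 63.0% for H28, 54.3% for MSTO-211H, 50.7% for MPP89 and 58.2% for MeT-5A. Against H2452 it was 62.7% for H28, 60.3% for MSTO-211H, 59.1% for MPP89 and 62.6% for MeT-5A. It was 62.8% between H28 and MSTO-211H, 60.3% between H28 and each resistant line, 56.0% and 60.9% between MSTO-211H and MPP89 or MeT-5A, and 45.0% between the resistant lines.

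**Figure D1:**
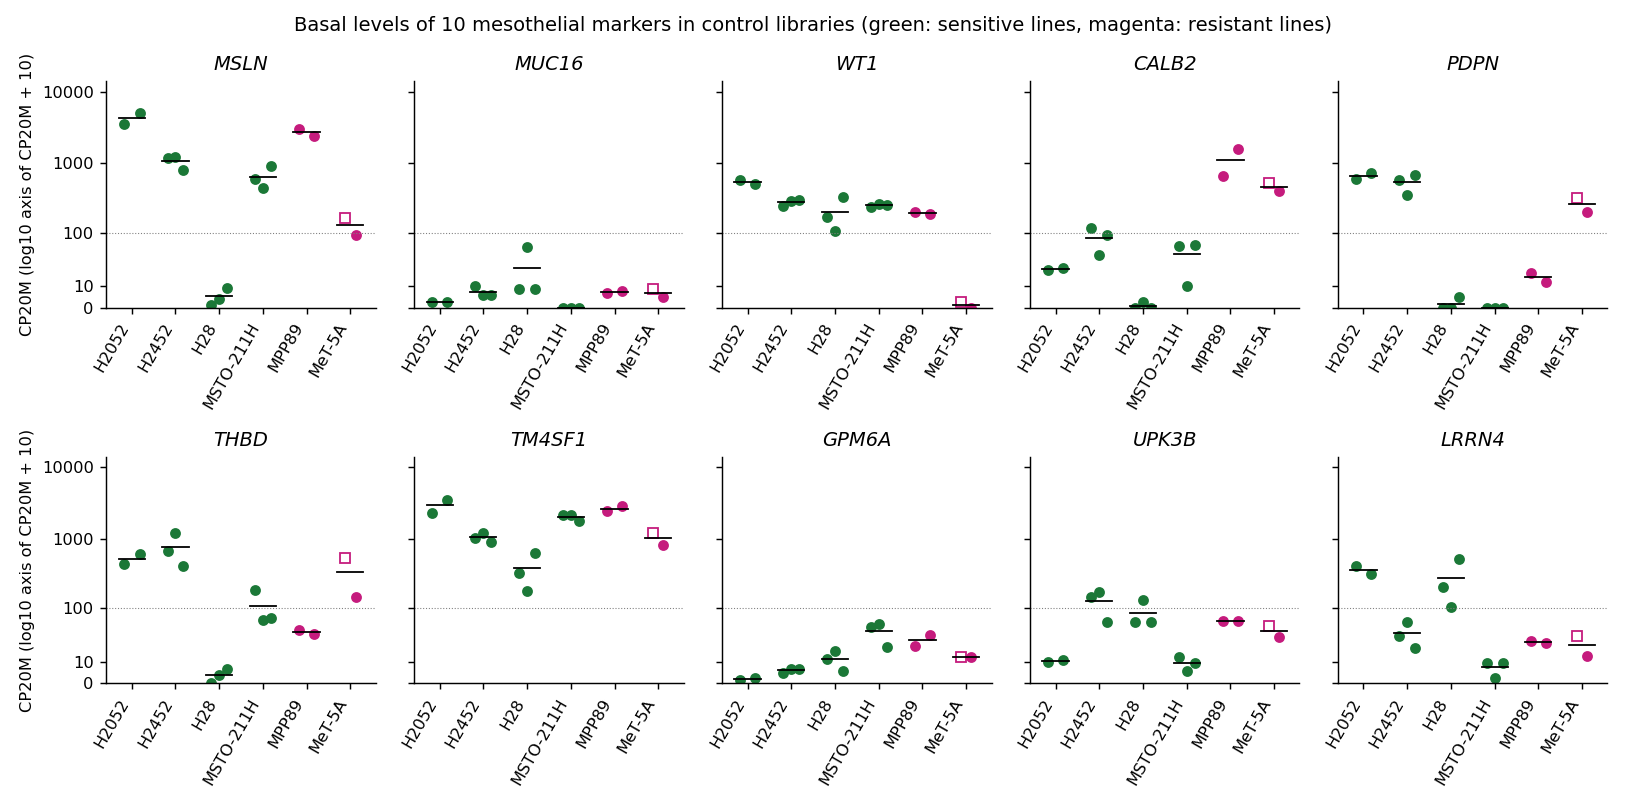
Basal CP20M (vertical, log10 axis of CP20M + 10) of the 10 markers in each control library of the 6 lines; circles are DMSO libraries, open squares the untreated MeT-5A library, bars the line means and the dotted line 100 CP20M. MSLN is near 0 in H28, PDPN near 0 in H28 and MSTO-211H, and WT1 near 0 in MeT-5A.

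MSLN (ENSG00000102854, chromosome 16 from 760734 to 768865 of GRCh38, plus strand) encodes mesothelin, a surface glycoprotein anchored in the membrane. It was at 3513 and 4999 CP20M in H2052 and at 3057 and 2400 in MPP89. H2452 had 1183, 1223 and 816, MSTO-211H had 597, 449 and 905, and MeT-5A had 167 untreated and 91 with DMSO. H28 had 1, 3 and 9. H2052 and MPP89 were the highest and did not differ beyond their spread (0.63 on the log2 scale, SE 0.36, limma adjusted p = 0.165), while each later neighbour in the order differed, the smallest step being 0.75 between H2452 and MSTO-211H (adjusted p = 0.0411), whose libraries overlapped. The line means spanned 301-fold between H2052 and H28 on the log2(CP20M + 10) scale, on which H28 lies below the pseudocount of 10, so that the fold depends on it. Per kilobase of exons, MSLN stood at the 97.1th percentile of tested genes in H2052 and at the 7.64th in H28.

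MUC16 (chromosome 19 from 8848844 to 9010390), the mucin that binds mesothelin and is known in serum as CA125, was low in every line. Its highest control value was 60 CP20M in 1 library of H28, whose others had 8 and 8. The other lines had 0 to 10, and MSTO-211H had 0 in all 3 libraries.

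WT1 (ENSG00000184937, chromosome 11 from 32387775 to 32435564, minus strand) is a zinc finger transcription factor of the developing mesothelium and kidney. H2052 had 591 and 506 CP20M, H2452 248, 292 and 303, MSTO-211H 242, 263 and 255, MPP89 202 and 191, and H28 172, 107 and 330. MeT-5A had 2 untreated and 0 with DMSO. All 5 MPM lines thus had WT1 and the immortalized mesothelial line had next to none. H28, the lowest MPM line, was above MeT-5A by 4.14 (SE 0.32, limma adjusted p = 1.07e-07), H2052 was above H2452 by 0.94 (adjusted p = 0.0217), and the lines between these did not differ from their neighbours beyond their spread. WT1 overlaps the antisense gene WT1-AS, and the strand setting of the counting was not given in the sources used here.

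CALB2 (ENSG00000172137, chromosome 16 from 71358713 to 71390436, plus strand) encodes calretinin, a calcium-binding protein. Both resistant lines had the highest basal levels, with 659 and 1577 CP20M in MPP89 and 534 (untreated) and 404 (DMSO) in MeT-5A. The sensitive lines had 117, 43 and 92 in H2452, 61, 10 and 64 in MSTO-211H, 23 and 25 in H2052, and 0, 2 and 0 in H28. No library of a sensitive line reached those of the resistant lines. MPP89 and MeT-5A did not differ beyond their spread (1.12, SE 0.58, limma adjusted p = 0.131), and MeT-5A was above H2452, the next line, by 2.43 (SE 0.53, adjusted p = 0.00122). With 2 resistant lines, the class cannot be told apart from these lines. CALB2 overlaps the antisense gene LINC02136.

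PDPN (ENSG00000162493, chromosome 1 from 13583465 to 13617957, plus strand) encodes podoplanin, a mucin-type glycoprotein of mesothelium and lymphatic endothelium. It was at 602 and 733 CP20M in H2052, at 590, 360 and 682 in H2452, and at 325 (untreated) and 200 (DMSO) in MeT-5A. MPP89 had 20 and 13, H28 had 0, 0 and 4, and MSTO-211H had 0 in all 3. The lines thus fell into 3 with and 3 nearly without PDPN, with a step of 3.34 between MeT-5A and MPP89 (SE 0.32, limma adjusted p = 2.39e-06).

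THBD (ENSG00000178726, chromosome 20 from 23045633 to 23049672, minus strand) encodes thrombomodulin, the thrombin receptor that turns thrombin towards the anticoagulant protein C. It was at 686, 1198 and 416 CP20M in H2452, at 450 and 612 in H2052, and at 534 (untreated) and 148 (DMSO) in MeT-5A. MSTO-211H had 190, 66 and 71, MPP89 45 and 39, and H28 0, 3 and 6. H2452, H2052 and MeT-5A overlapped, and the steps that passed the test were from MeT-5A to MSTO-211H (1.45, limma adjusted p = 0.0311) and from MPP89 to H28 (2.02, adjusted p = 0.00502).

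TM4SF1 (ENSG00000169908, chromosome 3 from 149369022 to 149377692, minus strand), a protein that crosses the membrane several times and is abundant in mesothelium and endothelium, was the only one of the 10 markers at 100 CP20M or more in every control library. H2052 had 2339 and 3537 CP20M, MPP89 2435 and 2845, MSTO-211H 2148, 2179 and 1768, H2452 1039, 1228 and 921, MeT-5A 1217 (untreated) and 827 (DMSO), and H28 334, 183 and 643. The upper 3 lines did not differ from their neighbours beyond their spread, MSTO-211H was above H2452 by 0.93 (SE 0.33, limma adjusted p = 0.0249), and MeT-5A was above H28 by 1.53 (SE 0.37, adjusted p = 0.00265). Per kilobase, TM4SF1 (841 CP20M per kb) was second to MSLN (1645) among the markers in H2052.

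UPK3B (chromosome 7 from 76510525 to 76516522, plus strand), a member of the uroplakin family that mesothelium makes, was low throughout. Its highest values were 148, 174 and 62 CP20M in H2452 and 61, 134 and 62 in H28, and its lowest were 10 and 11 in H2052 and 13, 5 and 9 in MSTO-211H. Whether reads of the related UPK3BL genes entered the counts of UPK3B was not tested. LRRN4 (chromosome 20 from 6040546 to 6054060, minus strand), a leucine-rich repeat membrane protein, was at 412 and 322 CP20M in H2052 and at 208, 105 and 524 in H28, against 2 to 62 in every control library of the other lines. H28, which had almost no MSLN, CALB2, PDPN or THBD, was therefore among the 2 lines with most LRRN4, and was above H2452 by 2.35 (SE 0.47, limma adjusted p = 0.000594). GPM6A (chromosome 4 from 175632934 to 176002664, minus strand), a membrane glycoprotein best known from neurons, was highest in MSTO-211H with 50, 57 and 22 CP20M, followed by MPP89 with 23 and 37, and was at 18 or less elsewhere.

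Over the 8 tested markers and 6 lines, 17 of 40 steps between neighbouring lines passed the test. Neighbours are the closest lines of each marker, so this share cannot be set beside those of all tested genes given above. Between the same fixed pairs of lines, 4 to 7 of the 8 markers differed, 88 of 120 contrasts in all. The SD of the 6 line means was 3.07 for MSLN, 2.81 for PDPN, 2.47 for CALB2 and 1.14 for both TM4SF1 and UPK3B. The median was 2.10 over the 8 markers and 0.64 over all tested genes, and each of the 8 was above the latter. MSLN stood at the 99.0th percentile of this SD and TM4SF1 at the 76.2nd.

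**Figure D2:**
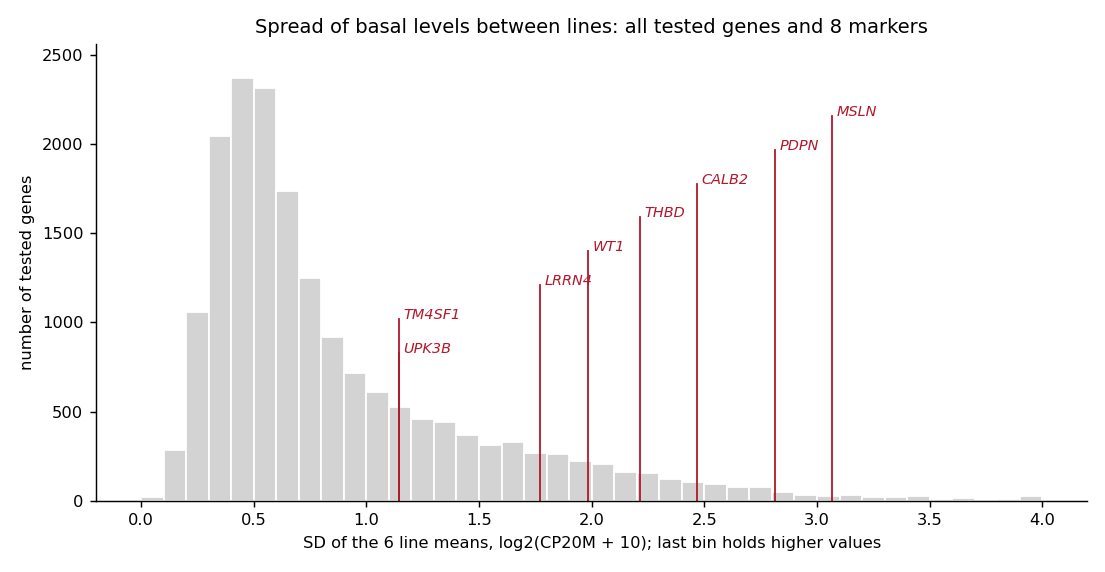
Histogram of the SD of the 6 line means of log2(CP20M + 10) (horizontal) over the 17803 tested genes (vertical, number of genes), with red lines at the 8 tested markers; the heights of the red lines only separate the names. TM4SF1 and UPK3B are at 1.14 and MSLN at 3.07, against a median of 0.64.

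The markers did not vary as a block. Over the 33 libraries, which share lines and experiments, PDPN and THBD had the highest correlation of any pair of markers (Pearson r = 0.84, and 0.88 over the 6 line means). MSLN and TM4SF1 had r = 0.63 over libraries and 0.93 over line means, whereas CALB2 and LRRN4 had r of -0.57 and -0.58. Among all tested genes, those most like MSLN were ABLIM3 (r = 0.97) and DDR2 (0.96), and those most like PDPN were GATA5 (0.96), a transcription factor, and SRPRA (0.94). The nearest to CALB2 were ISG15 (0.90) and IFI6 (0.89), both known as interferon-stimulated genes. UPK1B (0.93), another uroplakin, and ADCY5 (0.91) were nearest to LRRN4, MDFIC (0.91) and ROBO1 (0.90) to WT1, and PLEKHN1 (0.80) and TGM2 (0.80) to TM4SF1. For THBD these were AP000769.1 and PURA (0.95 each), and for UPK3B AL035587.1 (0.92) and RSPH3 (0.91). The 33 libraries come from 6 lines and are not independent, so these values were not tested.

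The second question was how the markers respond to palbociclib in the sensitive lines, where MKI67, the proliferation antigen Ki-67, was lower in 11 of 11 pairs. Over the 11 pairs CALB2 rose, and no other marker passed both thresholds, a fold change over 1.5 and a Benjamini-Hochberg FDR under 0.05. As background, these thresholds were passed by 15% of tested genes, 5.58% upward and 9.37% downward. CALB2 was higher by 1.69 on the log2(CP20M + 10) scale (SE 0.41, limma adjusted p = 0.00409), and this scale understates changes of low genes. With line means as units, CALB2 was higher by 1.78 (limma adjusted p = 0.0478). It was higher under palbociclib in 7 of 11 pairs and lower in 2.

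The rise of CALB2 was seen in 3 of the 4 sensitive lines. In H2052 it went from 23 to 238 and from 25 to 231 CP20M. In H2452 it went from 117 to 669, from 43 to 143 and from 92 to 893. In MSTO-211H it went from 10 to 311 and from 64 to 350 in experiments 2 and 3, but from 61 to 50 in experiment 1. All palbociclib libraries of H2052 and H2452 were above all DMSO libraries of the same line, whereas those of MSTO-211H overlapped. H28 had 0, 2 and 0 with DMSO and 0 in all 3 palbociclib libraries. The change was 2.85 (SE 0.16, limma adjusted p = 0.0357) in H2052, 2.36 (SE 0.35, adjusted p = 0.0212) in H2452 and 2.01 (SE 0.89, adjusted p = 0.176) in MSTO-211H. Under palbociclib CALB2 reached 143 to 893 CP20M in H2452, against 404 to 1577 in the DMSO libraries of the resistant lines. By treatment time, the mean change was 1.48 over 7 pairs of 9 days, with 4 pairs higher, and 2.05 over 4 pairs of 10 days, with 3 higher.

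Experiment 1 of MSTO-211H stood apart from the other pairs of that line in more than CALB2. THBD went from 190 to 50 CP20M there, against 66 to 214 and 71 to 229 in the other two, and UPK3B from 13 to 2, against 5 to 26 and 9 to 18. MKI67 fell by 1.40 on the log2 scale in this pair, the smallest fall of the 11, and changed by -3.11 and -2.83 in the other pairs of the line. The part of this difference in the marker values was not tested, and these values cannot tell whether the cells of this pair had the same exposure to the drug as the others or whether a library was exchanged. Its CALB2, THBD and UPK3B values are limited by this. Without this pair CALB2 changed by 1.88 (limma adjusted p = 0.00245) and THBD, at 0.68, was called as well (adjusted p = 0.00641). The pair was singled out by values of these same genes, so the fit without it adds no support for either change. With all pairs THBD was not called (0.46, limma adjusted p = 0.137).

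**Figure D3:**
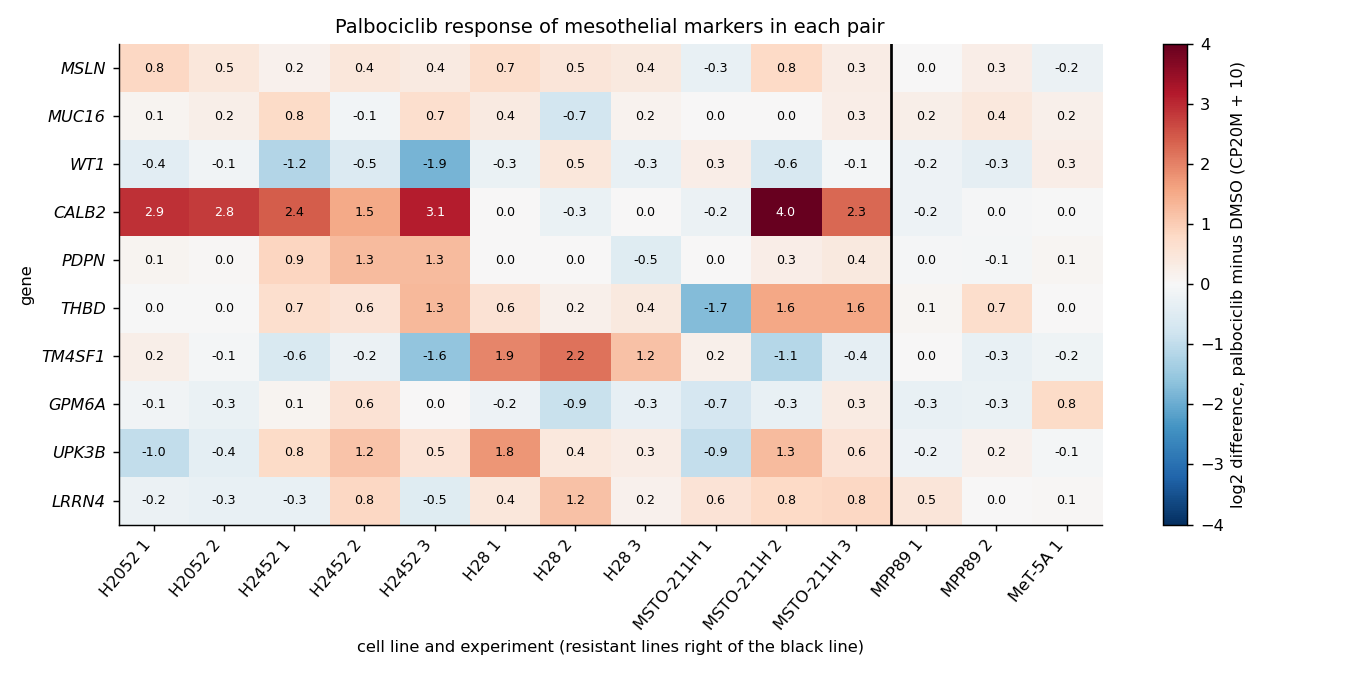
Heat map of the log2 difference, palbociclib minus DMSO on CP20M + 10, for the 10 markers (rows) in 14 pairs (columns, line and experiment), red for higher and blue for lower under palbociclib, with the value in each cell. CALB2 is red in 7 columns of 3 sensitive lines and near 0 in H28 and in the resistant lines, right of the black line; TM4SF1 is red in all 3 columns of H28.

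MSLN was higher in 10 of 11 pairs, by 0.42 on average (SE 0.09, limma adjusted p = 0.00234), which is under the fold threshold. It went from 3513 to 6180 and from 4999 to 6853 CP20M in H2052, from 1183 to 1336, 1223 to 1672 and 816 to 1060 in H2452, and from 597 to 487, 449 to 796 and 905 to 1113 in MSTO-211H. In H28 it went from 1 to 8, 3 to 8 and 9 to 15, values of a few reads (0.53, SE 0.09, limma adjusted p = 0.0364, under the fold threshold). The order of the sensitive lines in MSLN was the same with and without palbociclib.

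WT1 was lower in 9 of 11 pairs, by a mean of -0.43 (SE 0.18, limma adjusted p = 0.0607). LRRN4 was at 0.32 (adjusted p = 0.119), PDPN at 0.34 (0.0982), UPK3B at 0.40 (0.174), THBD at 0.46 (0.137) and TM4SF1 at 0.16 (0.689), which turned to -0.019 without pair 1 of H28 and to -0.041 without its pair 2. The median change of the 8 tested markers was 0.37, against -0.11 over all tested genes. Median-of-ratios scaling moved the latter to 0.06 and turned the sign of no marker over the 11 pairs, but MSLN (0.60, adjusted p = 0.000143) and THBD (0.63, adjusted p = 0.0434) were then called higher. The untested MUC16 had a mean of 9.09 CP20M with DMSO and 9.64 with palbociclib, and GPM6A 16.6 and 13.

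H2452 was the line in which most markers changed, with 5 of 8 called, 4 up and 1 down, against 16.8% of all tested genes (6.04% up and 10.8% down). Besides CALB2, PDPN went from 590 to 1083, 360 to 885 and 682 to 1651 CP20M, a rise of 1.13 (SE 0.11, limma adjusted p = 0.0143) with no overlap between the groups. THBD went from 686 to 1107, 1198 to 1763 and 416 to 1045, a rise of 0.85 (SE 0.17, adjusted p = 0.0357) within each pair, although the groups overlapped. UPK3B went from 148 to 259, 174 to 399 and 62 to 95, a rise of 0.82 (SE 0.16, adjusted p = 0.0316), also with overlap. WT1 moved the other way, from 248 to 104, 292 to 197 and 303 to 76, a fall of 1.20 on the log2 scale (SE 0.29, adjusted p = 0.0484), and all 3 palbociclib libraries were below all DMSO libraries. The call of WT1 was lost with a pseudocount of 1 (limma adjusted p = 0.0593), median-of-ratios scaling (0.0630), no filter (0.0623) or no variance trend (0.0534). H2452 also had the largest falls of MKI67 among the 11 pairs, with changes of -4.20 to -5.44. No more than 1 of the 8 markers was called with any pair left out (0 without experiment 1 or 3, and CALB2 without experiment 2), and 0 were called without the pairing of experiments.

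In H28, TM4SF1 was the marker called, 1 of 8 against 13.2% of all tested genes (5.89% up and 7.34% down). It went from 334 to 1319, from 183 to 863 and from 643 to 1472 CP20M, a rise of 1.77 (SE 0.22, limma adjusted p = 0.0281), and every palbociclib library was above every DMSO library. The adjusted p was 0.0585 to 0.218 when 1 of the 3 pairs was left out. In H2452 the same gene went from 1039 to 681, 1228 to 1042 and 921 to 303 (-0.80, adjusted p = 0.107), in MSTO-211H from 2148 to 2455, 2179 to 989 and 1768 to 1366 (-0.44, adjusted p = 0.307), and in H2052 from 2339 to 2773 and 3537 to 3367 (0.09, adjusted p = 0.584). H28, the line with the lowest basal TM4SF1, thus had 863 to 1472 with palbociclib, and the range of the sensitive line means on the log2(CP20M + 10) scale was 8.22-fold with DMSO and 5.02-fold with the drug.

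In MSTO-211H, LRRN4 was called up (0.74, SE 0.11, limma adjusted p = 0.0362), from 9 to 18, 2 to 11 and 9 to 24 CP20M, values of a few reads that were no longer called with pseudocounts of 1 or 50. It was 1 of 8, against 13.8% of all genes (5.90% up and 7.94% down). In H2052 the only marker called was CALB2, against 17.7% (4.67% up and 13% down), and MSLN was at 0.63 (SE 0.13, adjusted p = 0.0544).

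The response differed among the 4 sensitive lines for 2 of 8 markers, TM4SF1 (limma F test of treatment by line, adjusted p = 0.00271) and PDPN (adjusted p = 0.00555), against 37.1% of all tested genes. PDPN changed by 1.13 in H2452 and by 0.07 in H2052, a line with a like basal level (602 to 644 and 733 to 759 CP20M), and was at 4 or less in every library of H28 and MSTO-211H. CALB2 (adjusted p = 0.0555) and WT1 (0.0557) were just outside the threshold. With median-of-ratios scaling CALB2 was inside it (0.0334), and with a pseudocount of 1 PDPN was outside it (0.0860). Without experiment 1 of MSTO-211H, 5 markers differed, CALB2 (0.00242), THBD (0.00592) and UPK3B (0.0408) being added. Values of these same genes had set that pair apart, so this adds no support. Without experiment 2 of H2452 or of MSTO-211H, 4 markers differed.

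**Figure D4:**
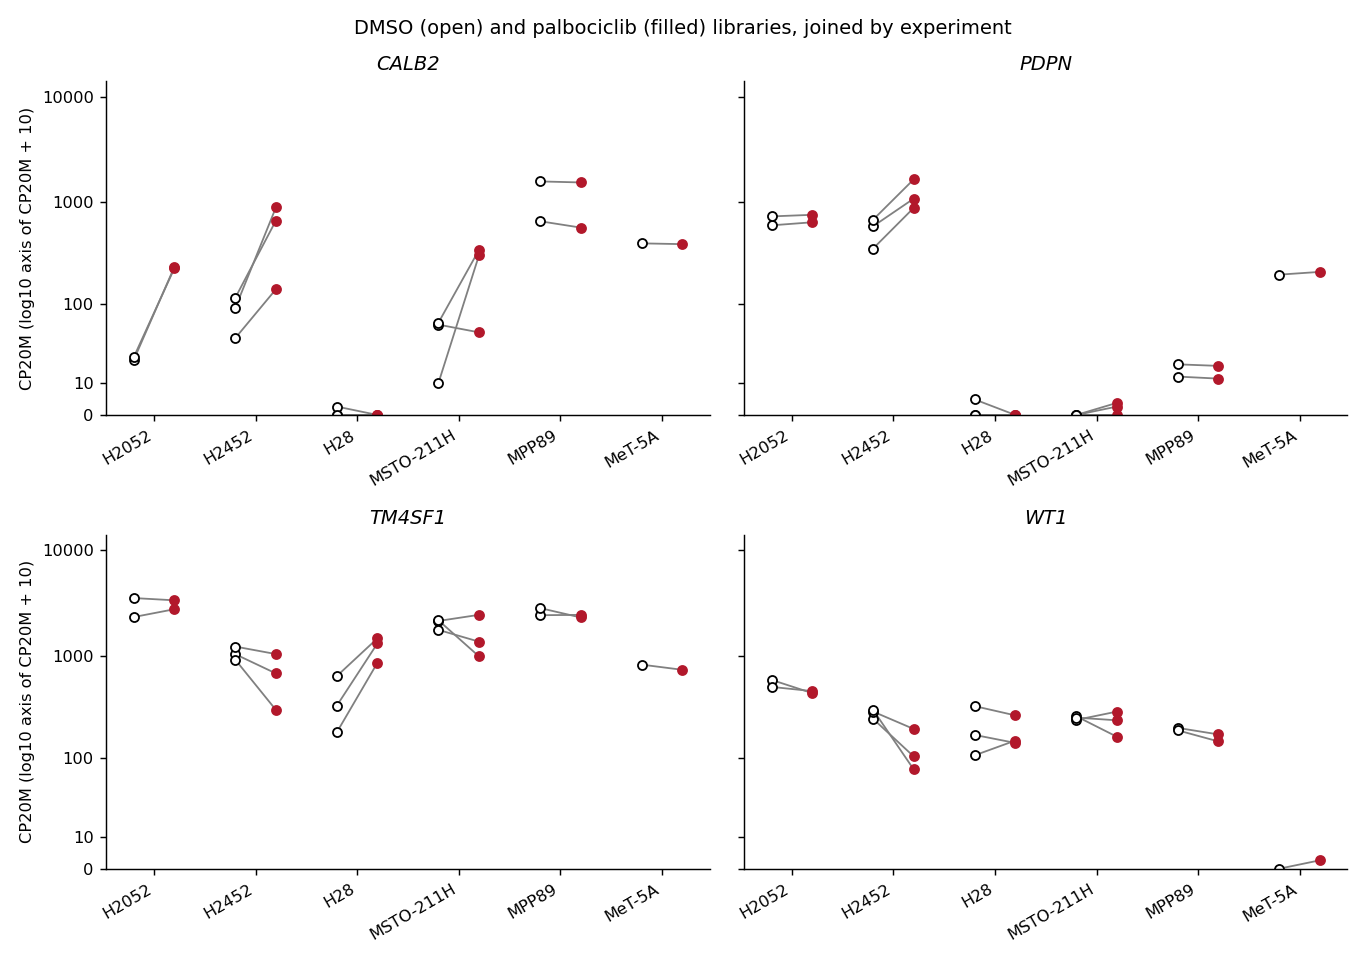
CP20M (vertical, log10 axis of CP20M + 10) of CALB2, PDPN, TM4SF1 and WT1 in DMSO (open) and palbociclib (filled) libraries of the 6 lines, joined by experiment. PDPN rises in H2452 and is nearly level in H2052, TM4SF1 rises in H28, and the values of CALB2, PDPN and TM4SF1 in MPP89 and MeT-5A are nearly level.

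In the resistant lines no marker was called, as no gene was. By limma, 0% of tested genes were called over the 3 pairs, with 1258 at an unadjusted p under 0.05, and 0% in MPP89 alone, with 918. Of the 8 markers, 1 over the 3 pairs (TM4SF1, -0.15, unadjusted p = 0.0491) and 0 in MPP89 had an unadjusted p under 0.05. CALB2 went from 659 to 573 and from 1577 to 1542 CP20M in MPP89 and from 404 to 397 in MeT-5A. MSLN went from 3057 to 3068 and 2400 to 2875 in MPP89, and from 91 to 76 in MeT-5A. MKI67 in these pairs was between 8453 and 12821 CP20M in all 6 libraries. The difference in response between sensitive and resistant lines was 1.77 for CALB2 (SE 0.82, limma adjusted p = 0.177) and 0.41 for MSLN (SE 0.19, adjusted p = 0.183). It passed the FDR threshold for 0 of 8 markers, against 9.37% of all tested genes (1.56% up and 7.81% down). An unadjusted p under 0.05 by limma was found for 2 of the 8 (CALB2 and MSLN), beside 4760 of the 17803 tested genes. The response of CALB2 is therefore not shown to differ between the classes.

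Other genes of mesothelium were taken as a list of 24, of which 18 were tested. This list and the mesenchymal list below were chosen with earlier results of these data known, so their counts are a description. Over the 11 pairs, 4 of the 18 were called up and 0 down, against 5.58% up and 9.37% down of all tested genes, with a median of 0.29. They were SLPI (1.69), a protease inhibitor of mucosal surfaces, UPK1B (1.14), EFEMP1 (0.75), the matrix protein fibulin-3, and HEG1 (0.75), a mucin-like membrane protein used as a mesothelioma antigen. CLDN15 (-0.46, limma adjusted p = 0.0138), BNC1 (-0.30, 0.0237) and PRG4 (-0.27, 0.0190) passed the FDR but not the fold threshold. KRT7 (0.47, 0.0342), ALDH1A2 (0.43, 0.0487) and BCHE (0.35, 0.0366) did so upward. HEG1 rose in H2052 (1.34) and MSTO-211H (1.69) and was at 0.13 in H2452 and 0.03 in H28. EFEMP1 was called in no single line. The keratins KRT8 (0.30) and KRT18 (0.27) did not pass over the 11 pairs (adjusted p = 0.302 and 0.331 by limma), where lines went opposite ways. Both rose in MSTO-211H (1.46 and 1.33), KRT18 fell in H2452 by 0.68 on the log2 scale, and their responses differed among the sensitive lines (limma F test, adjusted p = 0.000252 and 0.000678). Of 14 mesenchymal genes, 2 were called up, the protease FAP (0.91) and the matrix protein SPARC (0.79), and 2 down, COL1A1 (-1.20) and PDGFRB (-0.60), with a median of -0.04, beside the same shares of all genes. By line, FAP was called in H2052 alone (2.80, and 0.20 in H28) and PDGFRB in none. SPARC was called in H2052 and H28. COL1A1 was called in H2052 (-0.59) and H28 (-2.68), and was at -0.02 in MSTO-211H. COL3A1 was called up in MSTO-211H (2.26) and down in H2452 (-1.14). The list medians stood beside -0.11 over all genes. Bulk libraries cannot tell fewer cells with a marker from less of its RNA per cell.

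The third question was whether the markers returned towards their DMSO level after the drug was removed. In the washout experiments (experiment 2 of H2052 and experiment 3 of the other lines, 1 library per line and condition, n = 4 lines), no marker was called between washout and palbociclib by limma, against 1.40% of all tested genes, all of them upward. MSLN had the only unadjusted p under 0.05 among the 8 (limma, 0.00884, adjusted p = 0.178). Of the 17803 tested genes, 2322 had an unadjusted p under 0.05. MSLN was lower after washout in 4 of 4 lines, by a mean of -0.31 (SE 0.09). In H2052 it was at 4999 CP20M with DMSO, 6853 with palbociclib and 4860 after washout, in H2452 at 816, 1060 and 975, in MSTO-211H at 905, 1113 and 863, and in H28 at 9, 15 and 11. MKI67 was higher after washout than with palbociclib in 4 of 4 lines.

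CALB2 remained above DMSO. It was at 25 CP20M with DMSO, 231 with palbociclib and 152 after washout in H2052, at 92, 893 and 433 in H2452, at 64, 350 and 313 in MSTO-211H, and at 0 in all 3 libraries of H28. Washout lay between DMSO and palbociclib in the 3 lines that had the gene. It exceeded DMSO by 1.61 (SE 0.44, limma adjusted p = 0.0434), 1 of 8 markers, against 5.76% of all tested genes (2.81% up and 2.95% down). With 1 line left out, the adjusted p was 0.182 without H2052, 0.133 without H2452 and 0.198 without MSTO-211H. Washout and palbociclib differed by -0.44 (SE 0.44, adjusted p = 0.751).

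THBD was higher after washout than with palbociclib in 3 of 4 lines. It was at 612, 603 and 887 CP20M (DMSO, palbociclib, washout) in H2052, at 416, 1045 and 1262 in H2452, at 71, 229 and 317 in MSTO-211H, and at 6, 11 and 6 in H28. Against DMSO the difference was 1.03 (SE 0.31, limma adjusted p = 0.0585), and it was called without H28 (1.37, adjusted p = 0.0493).

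Values of markers in single lines are given here as single libraries without a test. In H2452, WT1 was at 303, 76 and 204 CP20M (DMSO, palbociclib, washout). TM4SF1 in H2452, which was not called there, was at 921, 303 and 1075. PDPN in H2452 was at 682, 1651 and 1192, between both. TM4SF1 in H28 was at 643, 1472 and 1443, as high after washout as with palbociclib. LRRN4 in MSTO-211H was at 9, 24 and 31.

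**Figure D5:**
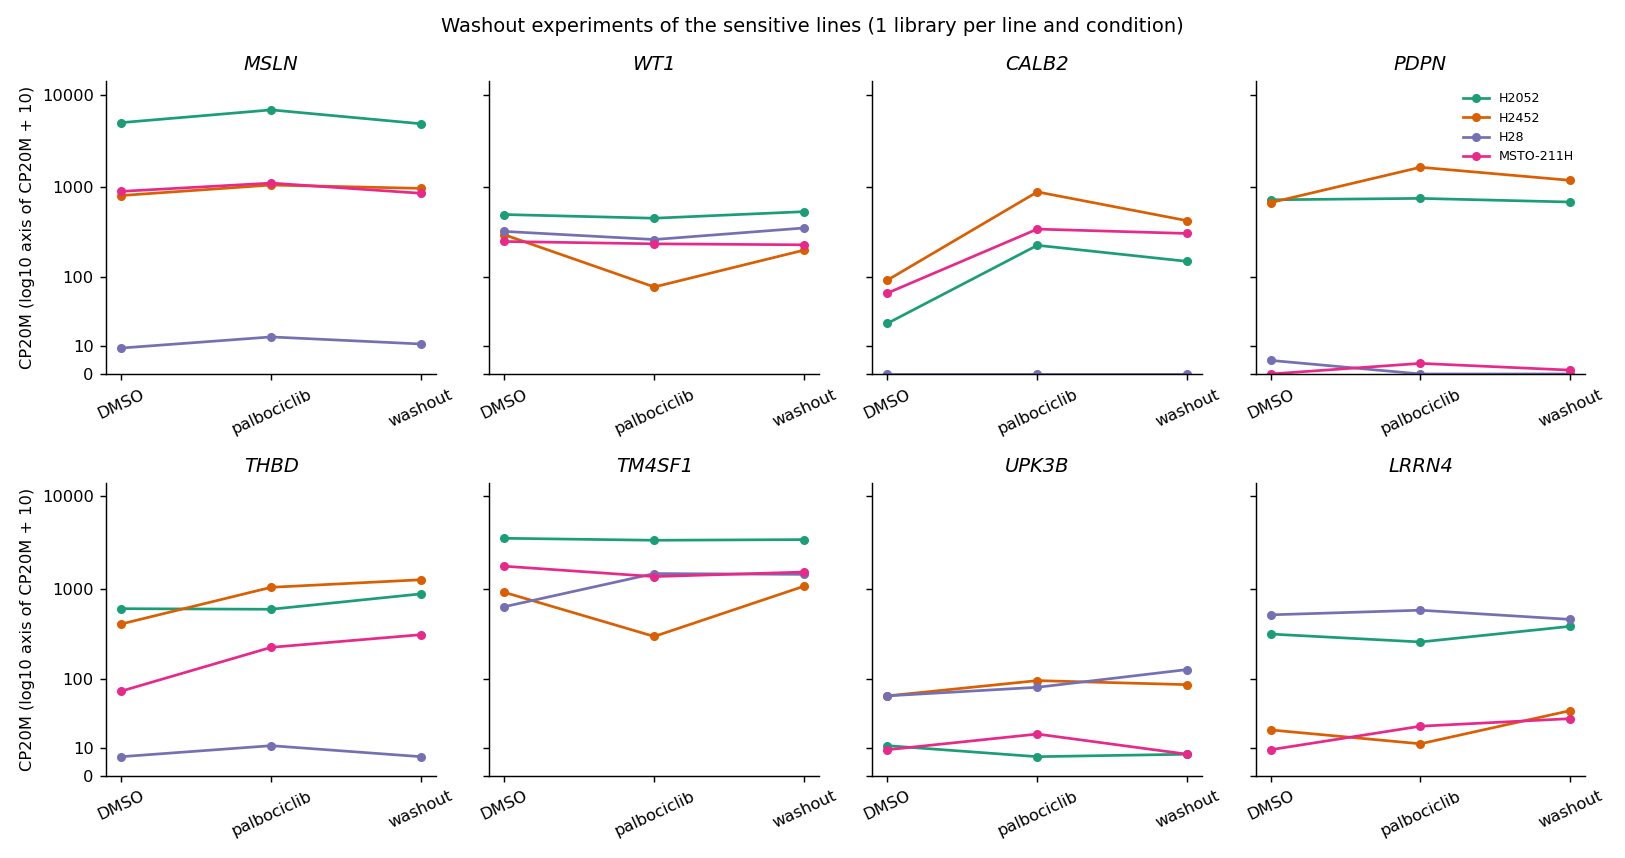
CP20M (vertical, log10 axis of CP20M + 10) of the 8 tested markers with DMSO, with palbociclib and after 48 h of washout in the washout experiment of each sensitive line (colours), 1 library per point. CALB2 after washout lies between DMSO and palbociclib in 3 lines and at 0 in H28; the points of WT1 and TM4SF1 in H2452 are lowest with palbociclib.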

How the data were processed

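RNA-seq was performed on 33 libraries of 6 established cell lines. The authors prepared directional libraries, trimmed paired-end reads with Trimmomatic 0.36, mapped them with STAR 2.5.3 to GRCh38, counted them per gene with HTSeq 0.9.1 and scaled each library to 20000000 reads. The deposited values (CP20M) are therefore a normalized score with rounding up, in which whole numbers are not read counts. Count models, such as the DESeq2 model of the authors, were not used for this reason. Column totals (20007662 to 20021400) do not show the depth, which was estimated for 23 libraries from the whole numbers that low values skip (median 16370000 reads), and 10 libraries gave no estimate.

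The log2 of CP20M + 10 was fitted in limma 3.58.1 (lmFit, eBayes with trend, R 4.3.3) for 17803 genes, those reaching 100 CP20M in any library. Calls needed a change of more than 1.5-fold in either direction with a Benjamini-Hochberg FDR under 0.05, or FDR alone for F tests, for basal contrasts and for differences between classes. The experiment was a block, and the line for washout. Treated and control samples were paired within experiments per the methods of the study, and deviations of paired libraries from the group means correlated at r from 0.18 to 0.78 in 13 pairs. Functions were tested on simulated data. Replicates of a condition had equal values at no more than 4.33% of tested genes. The markers, gene lists and motifs were chosen with earlier results of these data known. All 10 markers are named, with the 2 genes most correlated with each tested marker and the called genes of both lists. Positions and exon lengths are from GENCODE 44, another release than that of the authors, and lengths matched for 17624 of the tested genes. Alternatives were median-of-ratios scaling, pseudocounts of 1 and 50, fits without the block, without the filter or with genes filtered in each fit, eBayes without trend, line means as units, and leaving out replicates or the untreated library.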

Additional observations from a re-analysis of the deposited data

Results flagged for a closer look

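Among the 8 tested markers, 2 had a palbociclib response that differed between the sensitive lines by a test of the difference itself. For TM4SF1 the limma F test of treatment by line gave an adjusted p of 0.00271, with 1.77 in H28 (higher in 3 of 3 pairs), 0.09 in H2052, -0.44 in MSTO-211H and -0.80 in H2452 (lower in 3 of 3 pairs). For PDPN it gave an adjusted p of 0.00555, with 1.13 in H2452 (higher in 3 of 3 pairs), 0.07 in H2052 and next to no reads in H28 and MSTO-211H. Of all tested genes, 37.1% differed in this test, a larger share than that of the markers. With a pseudocount of 1, PDPN no longer differed (limma adjusted p = 0.0860).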

How the results depend on the processing

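CALB2 was called over the 11 pairs under all 19 alternatives (1.27 to 1.88, limma adjusted p from 0.00188 to 0.0478). The highest of these adjusted p came with line means as units, where lines rather than pairs are the replicates. All 8 basal differences were called under all 21. Steps between neighbouring lines that differed numbered 14 to 19. No marker was called in MPP89, in the resistant lines, in the difference between classes or between washout and palbociclib under any alternative run. The number of markers called over the 11 pairs was 2 with a pseudocount of 1, 3 with median-of-ratios scaling and 1 to 2 with 1 pair left out. TM4SF1 turned to -0.019 and -0.041 without pair 1 or 2 of H28 and ran up to 0.33 with other pairs left out. In H2052 it was 2 with a pseudocount of 50, with median-of-ratios scaling and with the filter within the fit, and 0 without the variance trend (CALB2 adjusted p = 0.05002 by limma). In H2452 WT1 was lost under 8 of 10 alternatives, and the number was 0 without the replicate block and 0 to 1 with 1 pair left out. In H28 it was 0 without the block, 2 with median-of-ratios scaling and 0 with any pair left out. In MSTO-211H it was 0 without the block, with pseudocounts of 1 and 50, with the filter within the fit, without a filter and with any pair left out. Differences among the sensitive lines numbered 1 with a pseudocount of 1 (PDPN lost), included CALB2 with median-of-ratios scaling (adjusted p = 0.0334 by limma) and numbered 2 to 5 with 1 pair left out. For washout against DMSO the number was 0 without the block, with a pseudocount of 50, without a filter or without the variance trend, 2 with median-of-ratios scaling and 0 to 2 with 1 line left out. Uncalled values that changed sign were UPK3B between washout and palbociclib (0.033 with a pseudocount of 50, -0.26 to 0.19 with 1 line left out) and, against DMSO, PDPN (-0.15 with a pseudocount of 1), which ran from -0.14 to 0.28 with 1 line left out, WT1 (-0.19 to 0.035), TM4SF1 (-0.012 to 0.44) and UPK3B (-0.022 to 0.39). The cause of these changes was not tested. Fits with a pair or line left out also had fewer samples. Leaving out a pair was not run in H2052 and MPP89, which would leave 1 pair. Depth limits UPK3B, LRRN4, MUC16 and GPM6A, whose low values stand for a few reads. It also limits CALB2 in experiment 2 of MSTO-211H. The largest change of CALB2 (4.00) starts there from 10 CP20M with DMSO, at 1.34 CP20M per read.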
